A study of Mus musculus with 8 samples.

Results

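The glycolytic enzyme mRNAs described here are the transcripts of 10 genes (Gpi1, Pfkl, Aldoa, Tpi1, Gapdh, Pgk1, Pgam1, Eno1, Pkm and Ldha), out of 13120 genes with reads in a nanopore direct RNA sequencing experiment on mouse P19 cells. The 10 genes were chosen by their read numbers, which were lower under MHY1485 at 48 h in these same libraries. Their values from that comparison, reads and tails alike, are therefore given as a description, without a test. P19 is an embryonal carcinoma line, here wild type, grown undifferentiated in serum and high-glucose medium. Cells were exposed to MHY1485 (MHY), a compound used to activate the mTOR pathway, at 10 µM for 24 h or 48 h, and control cells received the same amount of the solvent DMSO. Medium with fresh compound was given every 24 h. Each of the 4 groups had 2 biological replicates of this single line. The resulting 8 libraries are named by the numbers in the deposited table, 21 and 23 for DMSO and MHY at 24 h, and 24 and 25 for DMSO and MHY at 48 h. Direct RNA sequencing reads native molecules from the poly(A) tail inwards, so that each read gives 1 molecule, its transcript and the length of its tail in nucleotides (nt). After filtering, a library held 178369 to 316546 mRNA reads, of which 4597 to 9257 fell on the 10 genes. All 10 genes passed the filters on low read numbers.

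Glycolysis splits glucose into pyruvate in the cytosol, with a net gain of ATP and NADH. In its upper reactions glucose is phosphorylated, isomerised and cleaved into triose phosphates, and in its lower reactions these are oxidised and dephosphorylated to pyruvate. Lactate dehydrogenase then regenerates NAD from NADH. Proliferating and pluripotent cells are known for high glycolytic flux, and mTOR signalling is known to raise transcription of glycolytic genes, in part through the hypoxia-inducible factor HIF and through MYC, which bind related E-box-like DNA elements.

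The promoters of 4 of the genes are shown because their mRNAs lay at the extremes of the 48 h values (Pgk1 and Gapdh) or because their windows held the most matches to the element bound by HIF (Ldha and Pgam1). Both reasons were set after the values had been seen. Each sequence is the 250 bases before the RefSeq start of the gene (GRCm38.p6), written from 5′ to 3′ on the strand of the gene. Capitals mark ACGTG or GCGTG, searched on both strands, so that CACGT and CACGC are marked too and overlapping matches merge. The windows are chrX:106186850-106187099 (plus strand) for Pgk1, chr7:46845554-46845803 (plus strand) for Ldha, chr19:41911621-41911870 (plus strand) for Pgam1 and chr6:125165774-125166023 (minus strand) for Gapdh.
Pgk1: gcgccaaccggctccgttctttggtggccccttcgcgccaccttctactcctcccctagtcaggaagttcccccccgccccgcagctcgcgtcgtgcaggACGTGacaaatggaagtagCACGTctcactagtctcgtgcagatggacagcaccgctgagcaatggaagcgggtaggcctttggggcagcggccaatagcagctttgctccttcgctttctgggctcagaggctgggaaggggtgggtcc
Ldha: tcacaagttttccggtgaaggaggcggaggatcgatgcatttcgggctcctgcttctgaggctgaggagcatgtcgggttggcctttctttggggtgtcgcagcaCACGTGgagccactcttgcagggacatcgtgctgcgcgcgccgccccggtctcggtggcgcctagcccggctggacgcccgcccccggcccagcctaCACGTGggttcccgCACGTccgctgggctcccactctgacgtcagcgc
Pgam1: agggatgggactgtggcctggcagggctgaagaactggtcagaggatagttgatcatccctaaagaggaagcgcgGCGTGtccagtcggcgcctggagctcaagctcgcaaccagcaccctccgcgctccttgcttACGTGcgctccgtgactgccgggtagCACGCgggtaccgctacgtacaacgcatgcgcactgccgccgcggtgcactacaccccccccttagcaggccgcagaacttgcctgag
Gapdh: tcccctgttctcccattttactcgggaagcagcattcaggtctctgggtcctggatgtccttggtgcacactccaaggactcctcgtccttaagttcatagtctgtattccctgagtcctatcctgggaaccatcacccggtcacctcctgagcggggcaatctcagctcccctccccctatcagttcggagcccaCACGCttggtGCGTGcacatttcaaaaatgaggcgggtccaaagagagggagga

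The Pgk1 and Gapdh windows ended at the annotated start of the main transcript sequenced here. Few Gapdh reads reached that start, with 0.774% to 1.58% per library beginning in the first 100 nt of their transcript. For Pgk1 this share was 29.0% to 46.8%. Coinciding starts below are therefore those of the annotation and not of the reads. For Ldha, Pgam1 and Eno1 the main transcript began 35 nt, 52 nt and 244 nt downstream of the RefSeq start, and for Tpi1 and Pkm 138 nt and 208 nt upstream of it, so that only for the other 5 genes did the window end where the main transcript began. In Pgk1 the matches began 150 and 131 bases upstream of the start, and in Gapdh 54 and 44 bases upstream. Either motif was present in the windows of 7 of the 10 genes (Pfkl, Aldoa, Gapdh, Pgk1, Pgam1, Eno1 and Ldha), against 38.6% of the 32851 RefSeq windows of the genome, and in 4 of the 5 genes with coinciding starts. The palindrome CACGTG, which contains ACGTG on both strands, was found in Ldha, and in none of the other 9 windows, against 6.02% of all windows. None of the 5 coinciding starts (Gpi1, Pfkl, Aldoa, Gapdh and Pgk1) was a C followed by 4 pyrimidines, the opening letters of TOP mRNAs, whose translation mTOR controls (2.51% of all RefSeq starts). A match is a description of letters and not of a bound site.

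The embryonal carcinoma identity of the cells was visible in every library. Levels are given as scaled reads per 1000000 reads (RPM), that is, reads divided by a library size that a median-of-ratios size factor has adjusted. Pou5f1, a core pluripotency factor, had 2131 to 2923 RPM in the 8 libraries. Sox2 had 90.6 to 174 and Lin28a 82.2 to 144. The 8 markers of embryonal carcinoma cells all had reads and summed to 3125 to 4038. The 6 neuron markers summed to 32.0 to 73.5, with Rbfox3 and Dcx at 0 reads, and Tubb3, the neuron marker with most reads, did not pass the test at either time. The fitted log2 change of Tubb3 was 0.64 at 24 h and 0.53 at 48 h. Its MHY libraries lay above the DMSO libraries at both times, as in 648 (24 h) and 765 (48 h) of all 4116 genes. The 7 endoderm and mesoderm markers summed to 28.2 to 315, with Afp and Sox17 at 0 reads. Of all markers, Tdgf1 and T passed the test at 48 h. Tdgf1 had 279.7 and 334 RPM in DMSO and 132 and 191 in MHY (47.3% lower, limma adjusted p = 0.000679). T had 68.8 and 232 in DMSO and 28.8 and 178 in MHY, so that the treatments overlapped (log2 change -1.19, limma adjusted p = 0.00890). Without the MHY library 24 neither passed, with a log2 change of -0.69 for Tdgf1 (limma adjusted p = 0.580) and of 0.34, the other direction, for T (limma adjusted p = 0.892). Without the DMSO library 25 neither passed either (limma adjusted p = 0.158 and 0.948). Their share in the changes of the glycolytic mRNAs was not tested. The MHY library 24 stood apart from the other 7 in its tails, with a median of 92.4 nt against 96.8 to 102 nt and with 4.46% of tails under 30 nt against 2.17% to 3.38%. Read changes at 48 h of the 10 genes and of the named pathway genes are therefore also given without it.

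Gapdh was by far the most sequenced of the 10 mRNAs. Because each read is 1 molecule, levels were not divided by transcript length. Gapdh encodes the dehydrogenase of the first lower reaction and had 11439 and 10444 RPM in DMSO at 24 h. It was followed by Pkm, the pyruvate kinase (3303 and 3713), and by Ldha, the lactate dehydrogenase subunit (3032 and 2795). The next 5 genes, Pgk1, Aldoa, Eno1, Tpi1 and Pgam1, lay between 1866 and 2307. Neighbours in this order overlapped in their library values, while all Pgk1 values were above those of Pgam1. Gpi1 (442 and 386) and Pfkl (181 and 219) were the lowest. In DMSO the levels at 48 h were close to those at 24 h, with log2 ratios between -0.17 (Tpi1) and 0.31 (Pfkl).

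After 48 h of MHY the 10 mRNAs together made up a smaller share of the reads. They took 2.69% (library 24, Wilson 95% interval 2.62% to 2.76%) and 2.92% (library 25, 2.87% to 2.98%) of the reads in DMSO, and 1.66% (library 24, 1.62% to 1.70%) and 2.15% (library 25, 2.09% to 2.21%) in MHY. The MHY libraries lay entirely below the DMSO libraries. The intervals cover counting error only. Summed RPM were 27922 ± 2201 in DMSO and 17648 ± 3898 in MHY (SD, n = 2). In bulk libraries a lower level cannot be told apart from fewer cells that carry the mRNA. For each of the 10 genes, too, the MHY libraries lay entirely below the DMSO libraries, a position held by 21.3% of the 4116 genes tested. The median log2 ratio of group means was -0.86 over the 10 genes and -0.02 over all genes tested. Abundant mRNAs in general were lower in MHY at 48 h, with a median of -0.20 over the 140 other genes with a mean of at least 1000 RPM (a bound set after the data were seen), of which 127 lay below 0. Their lowest value was -0.59, and at 24 h their median was -0.05. For the 10 genes the counts follow from the way they were chosen.

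**Figure D1:**
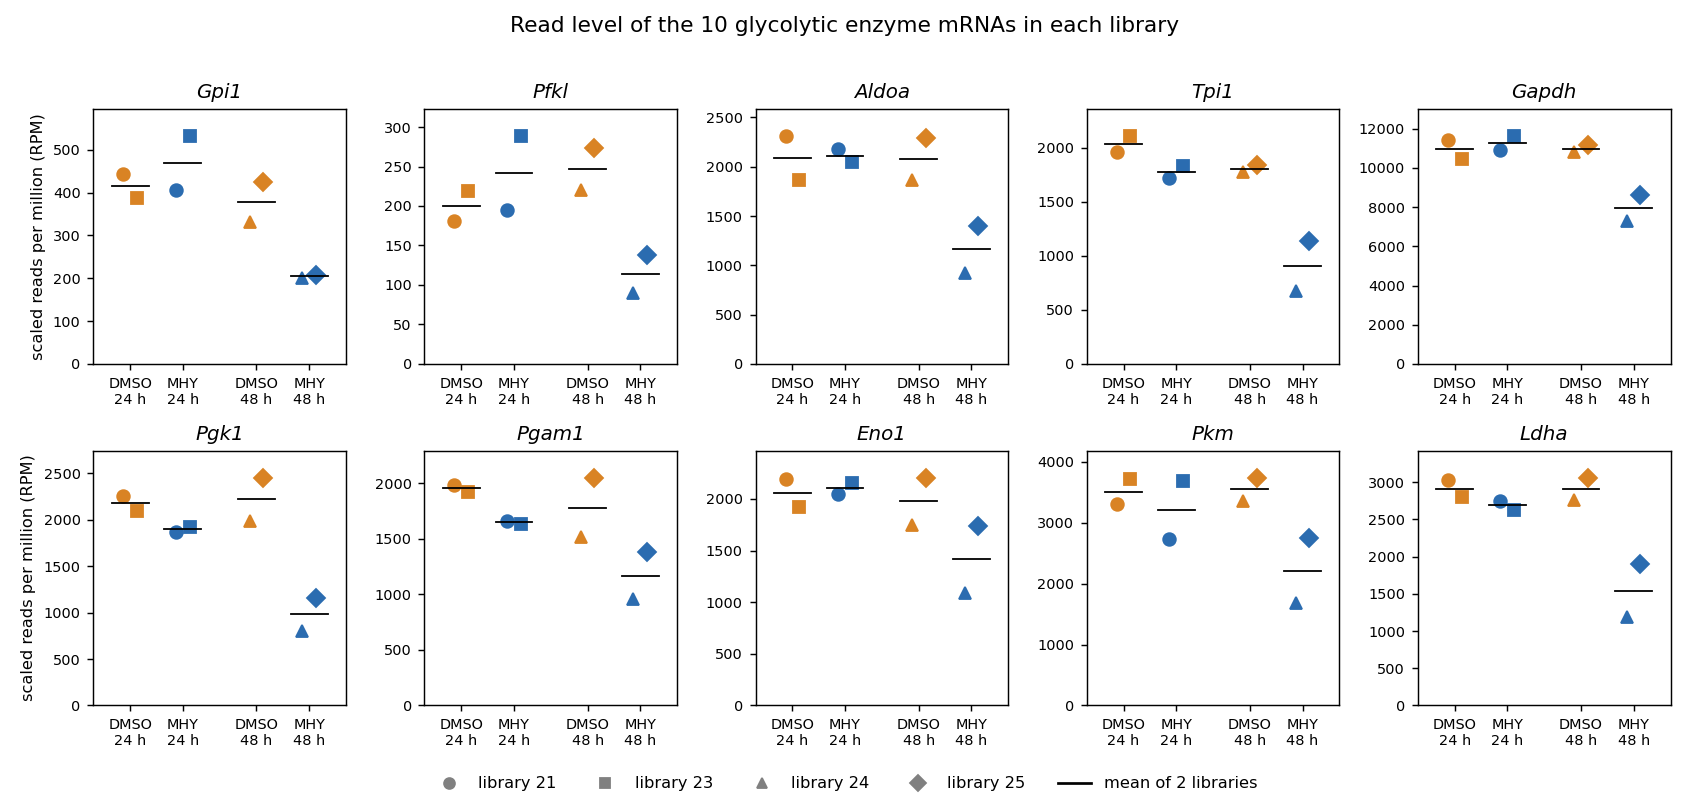
Read level of each glycolytic enzyme mRNA (vertical axes, RPM, from 0) in the 8 libraries, by treatment and time. Symbols are libraries and black lines are means of 2 libraries. In all 10 panels the MHY libraries of 48 h lie below the DMSO libraries of 48 h, while at 24 h the treatments overlap in 6 panels.

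Among the enzymes of the upper reactions, the ratios of group means lay between -1.12 (Pfkl) and -0.84 (Aldoa), in an order that changed with the run and the library. Pfkl encodes the liver-type subunit of phosphofructokinase, which catalyses the committed step. It had 220 (library 24) and 274 (library 25) RPM in DMSO at 48 h, and 89.3 (library 24) and 138 (library 25) in MHY. This amounts to a level 54.1% lower (log2 ratio -1.12), resting on 386 reads over all libraries. In the 2 runs of 48 h the log2 ratio of Pfkl was -0.65 and -1.43, the highest and the lowest of these 4 genes. Tpi1 encodes triose phosphate isomerase, which interconverts the triose phosphates. It had 1775 and 1844 in DMSO and 680 and 1136 in MHY (49.8% lower). The DMSO values of Tpi1 differed by less than its MHY values. Gpi1, the glucose phosphate isomerase, had 330 and 424 in DMSO and 202 and 209 in MHY (45.6% lower). Aldoa, the aldolase that cleaves fructose bisphosphate, had 1866 and 2290 in DMSO and 922 and 1403 in MHY (44.1% lower). In 3 of these 4 genes the MHY library 24 was clearly the lower one, and in Gpi1 the MHY libraries were close together.

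Among the enzymes of the lower reactions, Pgk1 had the lowest ratio of all 10 genes and Gapdh the highest over the 4 libraries of 48 h, although Pfkl was lower than Pgk1 without the MHY library 25 and Eno1 higher than Gapdh without the MHY library 24. Pgk1 encodes phosphoglycerate kinase, the first ATP-forming step. It had 1990 (library 24) and 2452 (library 25) RPM in DMSO at 48 h and 807 (library 24) and 1163 (library 25) in MHY, a level 55.7% lower (log2 ratio -1.17). Gapdh had 10803 and 11152 in DMSO and 7273 and 8597 in MHY, a level 27.7% lower (log2 ratio -0.47). In absolute terms the difference in Gapdh was still the largest of the 10, since its level was. Pkm had 3356 and 3735 in DMSO and 1688 and 2743 in MHY (37.5% lower). Pgam1, the phosphoglycerate mutase, had 1513 and 2048 in DMSO and 956 and 1380 in MHY (34.4% lower). The higher MHY library of Pgam1 was close to its lower DMSO library. The same held for Eno1, the enolase, with 1752 and 2204 in DMSO and 1089 and 1740 in MHY (28.5% lower). Ldha, which turns pyruvate into lactate, had 2760 and 3057 in DMSO and 1187 and 1895 in MHY (47.0% lower), with the values of the treatments far apart.

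**Figure D2:**
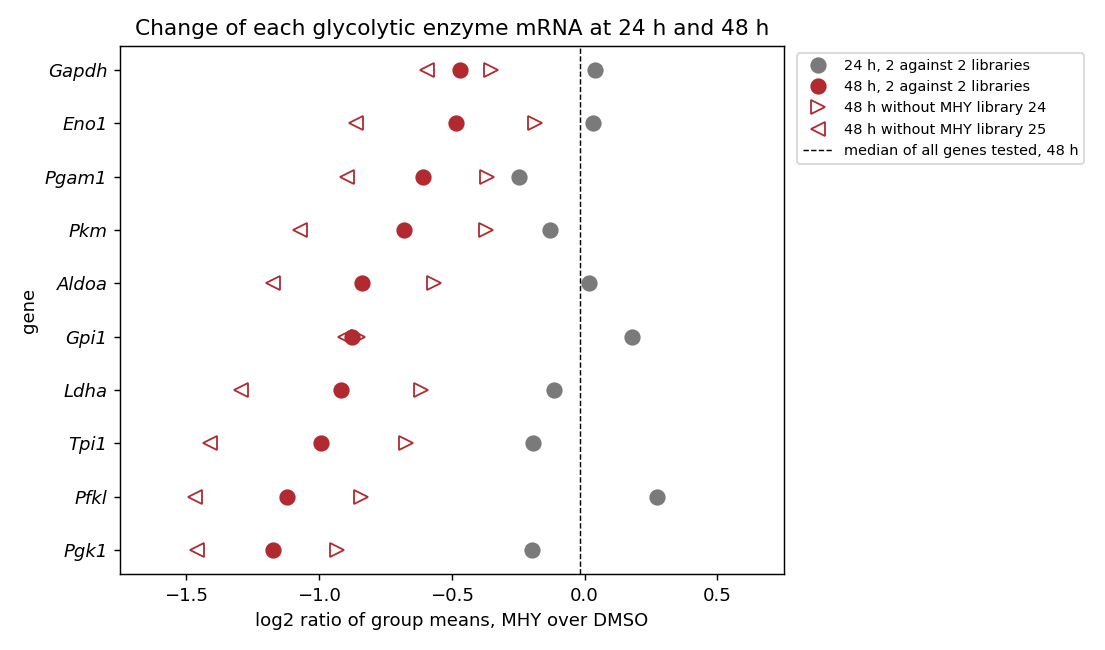
Log2 ratio of group means, MHY over DMSO (horizontal axis), of each gene at 24 h (grey) and 48 h (filled red), and at 48 h with a single MHY library (open triangles); the dashed line is the 48 h median of all genes tested. At 48 h all ratios lie below 0, from -1.17 for Pgk1 to -0.47 for Gapdh, and those without library 24 lie closer to 0 than those without library 25.

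The size of the 48 h difference depended on the MHY library. Without the MHY library 24, the log2 ratio of the summed level was -0.45 in place of -0.66, and without the MHY library 25 it was -0.91. Without library 24 the log2 ratio was -0.93 for Pgk1, -0.85 for Gpi1, -0.84 for Pfkl, -0.67 for Tpi1, -0.62 for Ldha, -0.57 for Aldoa, -0.37 for Pkm, -0.37 for Pgam1, -0.35 for Gapdh and -0.18 for Eno1. All 10 stayed below 0, as did 117 of the 140 other abundant genes, whose median was -0.13 and whose lowest value was -0.44. Pkm, Pgam1, Gapdh and Eno1 lay within the range of those genes. Without library 25 the ratios of the 10 genes ranged from -1.47 (Pfkl) to -0.59 (Gapdh). The 4 libraries of 48 h were sequenced together in 2 runs, each holding both treatments. The summed log2 ratio was -0.68 in one run and -0.65 in the other, and in each run all 10 genes had a lower mean level in MHY, with Pfkl the most unequal between runs. The runs are no independent replicates, since both held the same 4 libraries, whose values chose the genes. The share of alignments that passed the tail-quality tag was alike for the 10 genes in DMSO (85.8% and 85.9%) and MHY (85.5% and 85.7%) at 48 h. Scaling by total reads would move every log2 change at 48 h by 0.11, less than any of the 10 ratios.

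Reads were also related to those of Gapdh, which is often used as a reference gene and had the smallest relative difference over the 4 libraries of 48 h. At 48 h the MHY libraries lay below the DMSO libraries on this scale for 6 of the 9 other genes, a position held by 2.67% of the 4115 other genes tested, and Pgam1, Eno1 and Pkm overlapped. The count follows from the way the genes were chosen. The share is small because Gapdh itself was lower in MHY, which raises every other gene on this scale. In DMSO at 48 h there were 18.4 (library 24) and 22.0 (library 25) Pgk1 reads per 100 Gapdh reads, and in MHY 11.1 and 13.5. For Tpi1 there were 16.4 and 16.5 in DMSO and 9.35 and 13.2 in MHY. Pgam1 had 14.0 and 18.4 in DMSO and 13.1 and 16.1 in MHY, and Pkm 31.1 and 33.5 in DMSO and 23.2 and 31.9 in MHY. For Eno1, with 16.2 and 19.8 in DMSO, the MHY library 25 was the highest of the 4 at 20.2 and the MHY library 24 the lowest. Summed over the 9 other genes, there were 144 and 164 reads per 100 Gapdh reads in DMSO and 105 and 137 in MHY. At 24 h the sums were 154 and 163 in DMSO and 143 and 144 in MHY. These ratios show unequal differences among the 10 mRNAs and carry no test.

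At 24 h no change in the read level of the 10 mRNAs was found. The 10 genes took 2.86% and 2.73% of the reads in DMSO (libraries 21 and 23) and 2.72% and 2.81% in MHY, and the values overlapped. With limma voom over all 8 libraries, 0 of the 10 genes passed an adjusted p of 0.05 (Benjamini-Hochberg over 4116 genes), 0 had an unadjusted p under 0.05, and limma trend called none either. Over all genes tested the called share at 24 h was 0.0486%. Fitted log2 changes ranged from -0.24 for Pgam1 (SE 0.13, adjusted p = 0.958) to 0.20 for Pfkl (SE 0.23, adjusted p = 0.987). Gapdh, the most precisely measured, had a fitted change of 0.04 (SE 0.08, adjusted p = 0.992). The standard errors of the 10 genes lay between 0.08 and 0.23. The summed log2 ratio was -0.05, -0.04 and -0.05 in the 3 runs of 24 h, each of which held all 4 libraries.

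In 4 of the 10 genes the MHY libraries of 24 h nonetheless lay entirely below the DMSO libraries, a position held by 18.9% of all genes tested. Pgam1 had 1987 (library 21) and 1920 (library 23) RPM in DMSO and 1661 and 1633 in MHY. Pgk1 had 2259 and 2095 in DMSO and 1869 and 1926 in MHY. Tpi1 had 1961 and 2106 in DMSO and 1722 and 1836 in MHY, and Ldha 3032 and 2795 in DMSO and 2751 and 2627 in MHY. Neither these 4 genes nor the other 6 passed the test. Whether the change at 48 h differed from that at 24 h was not tested, since the 48 h values chose the genes. Between 24 h and 48 h the level in MHY differed by log2 ratios of -0.50 (Pgam1 and Gapdh) to -1.19 (Gpi1).

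**Figure D3:**
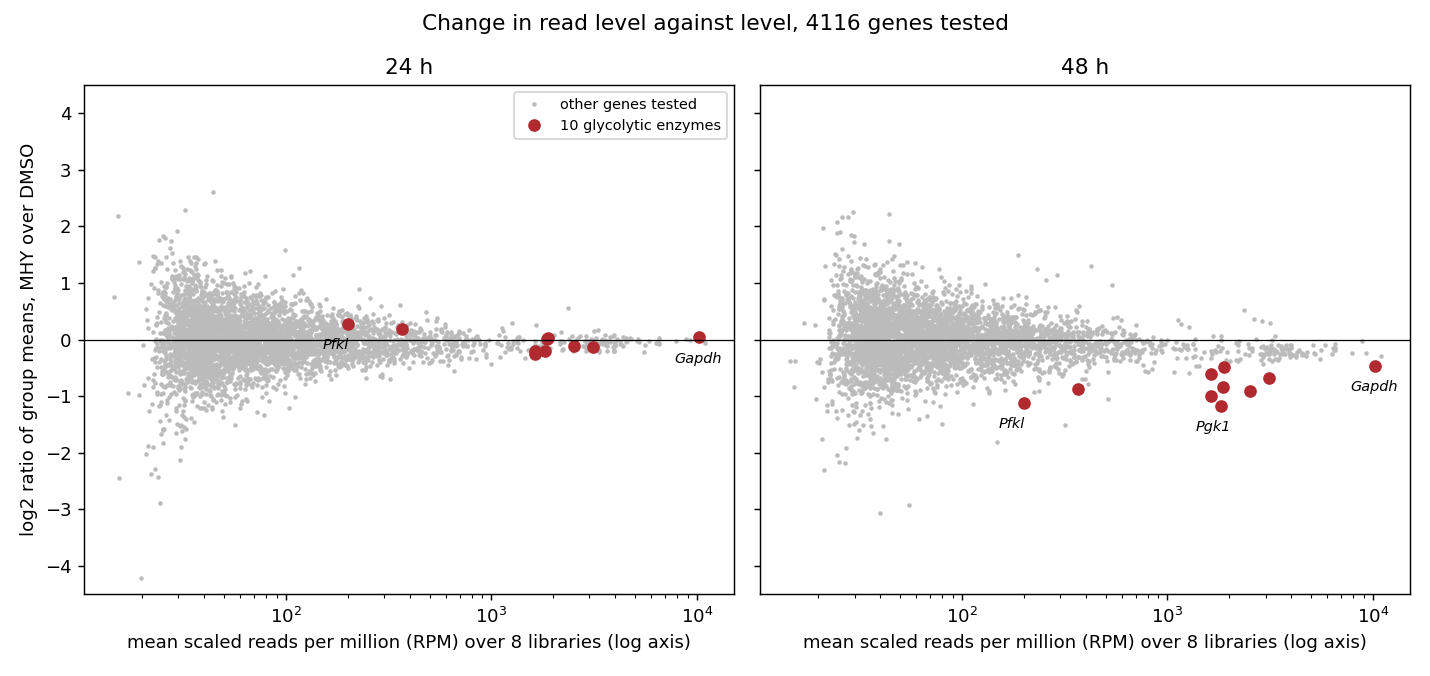
Log2 ratio of group means, MHY over DMSO (vertical axis), against the mean level over 8 libraries (horizontal log axis, RPM) for 4116 genes at 24 h and 48 h. Red points are the 10 glycolytic genes. At 24 h they lie from -0.25 to 0.27 among the other genes, and at 48 h they lie from -1.17 to -0.47.

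The tails of the glycolytic mRNAs were of average length or longer. In DMSO at 24 h the mean of the library medians was 102 nt over all 1949 genes tested for tails. It was 135 nt for Pfkl, a length above that of 97.8% of genes, 123 nt for Pgk1 (89.7%) and 120 nt for Pgam1 (87.2%). Gapdh had 108 nt (66.0%), Tpi1 103 nt (52.0%) and Ldha 102 nt (48.5%). Pfkl thus had the longest tail of the 10, resting on 34 (library 21) and 60 (library 23) reads. Ldha had the shortest mean, with library medians that overlapped those of Tpi1.

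At 24 h the median tails of the 10 mRNAs had lower fitted values in MHY, but no gene passed the test. Taken over all reads of the 10 genes, the median tail was 109 nt (library 21) and 111 nt (library 23) in DMSO and 105 nt and 106 nt in MHY. All other mRNAs had medians of 100 nt and 102 nt in DMSO and 100 nt and 101 nt in MHY. The fitted change in median tail was below 0 in 10 of the 10 genes, against 52.1% of all genes tested, with a median of -4.45 nt against -0.71 nt. The direction turned for Pfkl without weights for read number (0.34 nt), for Pfkl and Gpi1 with a barcode confidence of at least 0.9 (0.69 nt and 0.37 nt) and for Eno1 with a mapping quality of at least 10 (3.90 nt). With a library left out it also turned for Gpi1 (up to 9.92 nt), Pfkl (up to 7.96 nt) and Aldoa (up to 1.95 nt). The MHY libraries lay below the DMSO libraries in 6 of the 10 genes, against 17.9% of all genes. With limma, 0 of the 10 genes passed an adjusted p of 0.05, as did 0 of all 1949 genes (0%), and 2 of the 10 had an unadjusted p under 0.05 (Gapdh and Pgk1), against 77 of all 1949.

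The largest tail difference was that of Pgk1. Its median tail was 124 nt (library 21) and 121 nt (library 23) in DMSO at 24 h, and 110 nt and 107 nt in MHY. Tails over 150 nt made up 30.2% and 27.8% of Pgk1 reads in DMSO and 17.6% and 16.7% in MHY. The fitted change in median was -13.5 nt (SE 3.68, unadjusted p = 0.000690, adjusted p = 0.952). The adjusted p ranged from 0.0839 to 0.997 over the alternatives. Gapdh, with 2055 to 2866 reads per library at 24 h, had medians of 108 nt and 108 nt in DMSO and 102 nt and 104 nt in MHY (change -5.46 nt, SE 1.95, adjusted p = 0.996). Ldha had 99.7 nt and 104 nt in DMSO and 94.1 nt and 98.3 nt in MHY (change -6.12 nt, SE 3.29, adjusted p = 0.996).

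The share of tails of 30 to 90 nt, called 60-nt tails after their middle, had the opposite direction, again with no gene past the threshold. Over all reads of the 10 genes it was 33.5% and 31.6% in DMSO at 24 h and 37.1% and 35.5% in MHY, and for all other mRNAs 39.7% and 38.1% in DMSO and 40.2% and 39.2% in MHY. Its fitted log2 odds were above 0 in 10 of the 10 genes (54.4% of all genes tested), with a median of 0.20 against 0.05. Eno1 turned to -0.33 with a mapping quality of at least 10, and Pgam1 to -0.087 with a class of 40 to 80 nt. With a library left out, values fell as low as -0.34 for Pfkl, -0.12 for Gpi1, -0.10 for Aldoa and -0.049 for Eno1. In 5 genes (Tpi1, Gapdh, Pgk1, Pgam1 and Ldha) the MHY libraries lay entirely above the DMSO libraries, against 17.9% of all genes. For Gapdh the share was 34.3% and 32.3% in DMSO and 38.4% and 37.1% in MHY. The change in log2 odds of Gapdh was 0.30 (SE 0.08, limma adjusted p = 0.343), and no gene of 1949 passed, while 3 of the 10 had an unadjusted p under 0.05, against 95 of all 1949. Fitting the 4 libraries of 24 h alone gave Gapdh a limma adjusted p of 0.00880, and leaving out either MHY library of 48 h from the shared spread gave 0.0177 (library 24) and 0.0190 (library 25), within a range of 0.00769 to 0.992 over the alternatives. Pgk1 (23.3% and 24.7% in DMSO, 31.5% and 31.1% in MHY) and Ldha (39.0% and 36.9% in DMSO, 46.4% and 42.4% in MHY) each had an adjusted p of 0.865. Tails under 30 nt were rare at 24 h, with at most 1.85% of the reads of any of the 10 genes in any library.

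**Figure D4:**
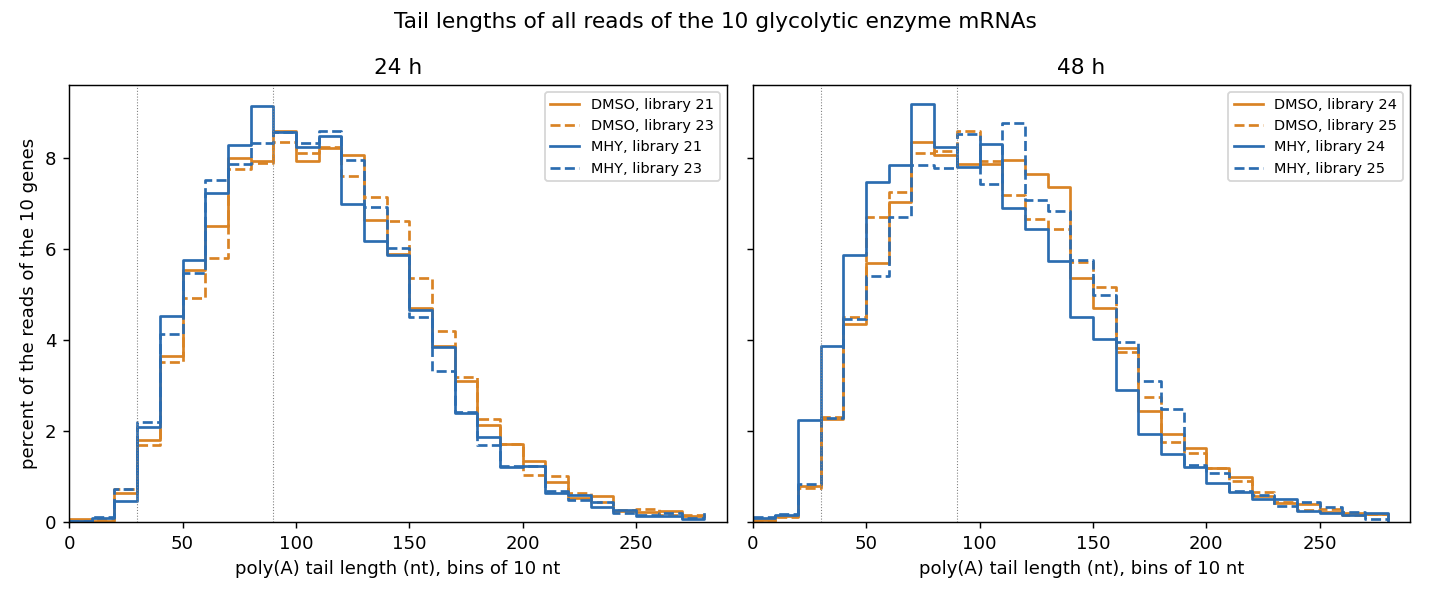
Tail lengths of all reads of the 10 glycolytic mRNAs in each library, as percent of reads (vertical axis) in bins of 10 nt (horizontal axis). Dotted lines mark 30 and 90 nt. At 24 h the MHY curves lie above the DMSO curves at most lengths from 30 to 90 nt, but the treatments overlap in the bins from 50 and 70 nt. At 48 h the MHY library 24 lies apart from the other 3.

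At 48 h the tails differed between the MHY libraries more than between treatments. Over the 10 genes the median was 106 nt (library 24) and 105 nt (library 25) in DMSO, and 96.5 nt and 108 nt in MHY. The MHY library 24 was thus the lowest and the MHY library 25 the highest of the 4. All other mRNAs had 96.4 nt and 99.1 nt in DMSO and 92.3 nt and 98.0 nt in MHY, where library 24 was again the lowest and library 25 lay between the DMSO libraries. Only for Pgk1 and Pgam1, 2 of the 10 genes, did both MHY medians lie below both DMSO medians, against 21.8% of all genes. Pgk1 had 112 nt and 116 nt in DMSO and 93.5 nt and 110 nt in MHY. Pgam1 had 116 nt and 117 nt in DMSO and 112 nt and 108 nt in MHY. For Ldha the medians were 101 nt and 96.7 nt in DMSO and 81.9 nt and 97.8 nt in MHY. Tails under 30 nt made up 3.80% of Gapdh reads in the MHY library 24, against 1.24% in the MHY library 25 and 1.27% and 1.28% in DMSO. In 4 of the 10 genes (Gpi1, Tpi1, Pgk1 and Ldha) both MHY libraries had a larger share of tails under 30 nt than both DMSO libraries, against 26.1% of all genes. These shares rest on few reads. They were 2 and 2 in MHY and 2 and 1 in DMSO for Gpi1, and 13 and 4 in MHY and 5 and 6 in DMSO for Ldha (libraries 24 and 25).

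**Figure D5:**
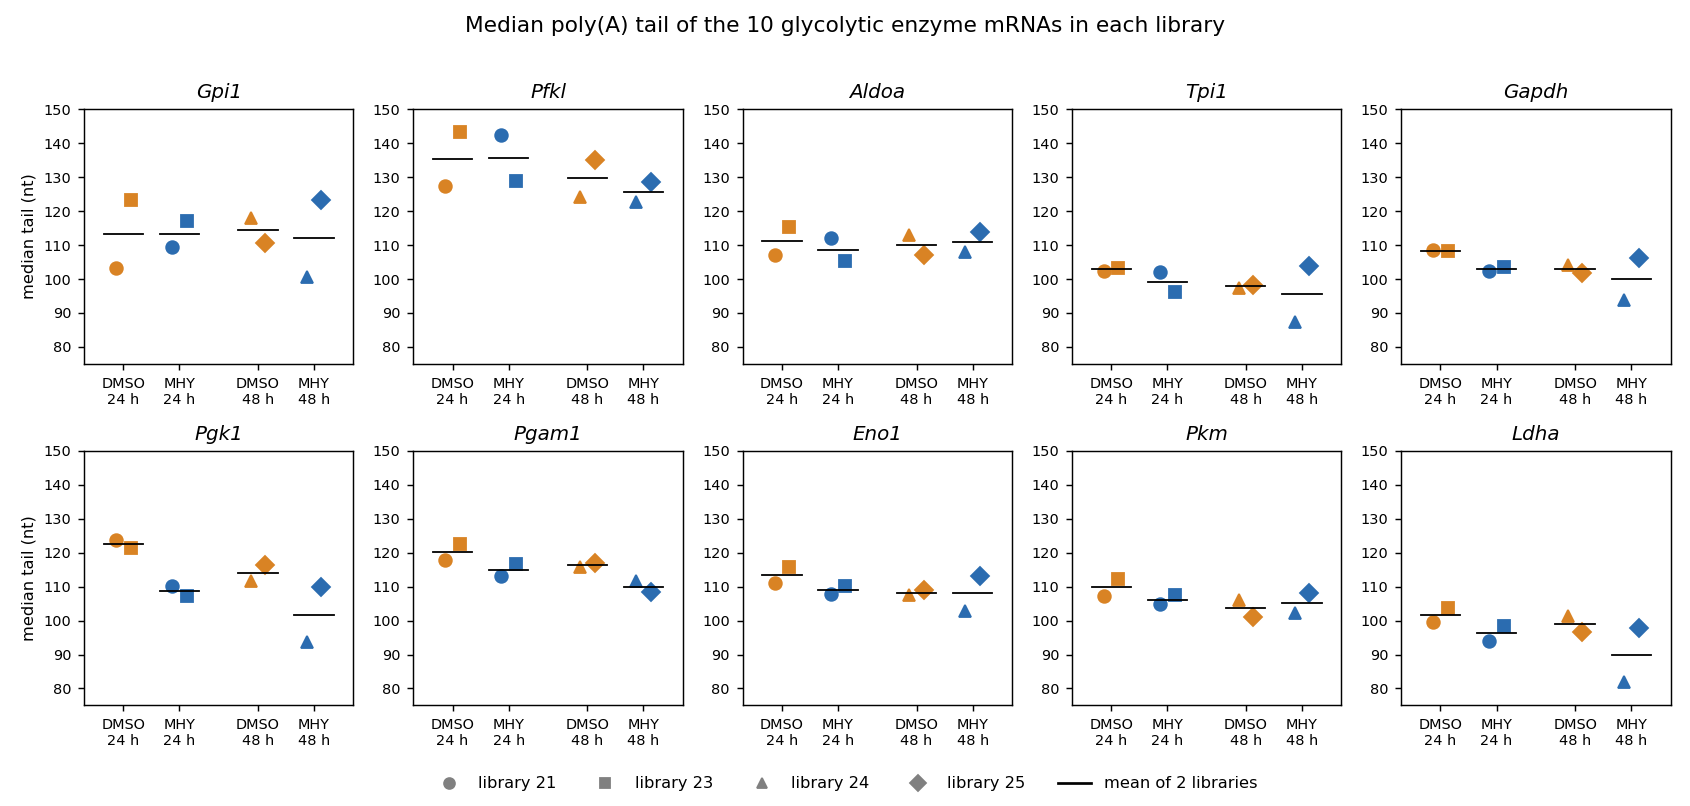
Median poly(A) tail (vertical axis, nt, from 75 to 150) of each glycolytic mRNA in the 8 libraries, with black lines at the mean of 2 libraries. Pgk1 lies lower in both MHY libraries at 24 h (110 and 107 nt against 124 and 121 nt), and at 48 h the MHY library 24 lies below the MHY library 25 in 9 of the 10 genes.

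Each gene was read mostly as a single transcript. Pkm has alternative transcripts that differ by a pair of coding exons of 167 nt. The exon at chr9:59675568-59675734 belongs to Pkm-201, which corresponds to the M2 form of pyruvate kinase known from proliferating cells, and that at chr9:59675029-59675195 to Pkm-202, the M1 form of muscle and brain. Pkm-201 took 6031 of the 6032 Pkm reads and Pkm-202 the remaining 1, in the MHY library 25 of 48 h. Pgk1-201, Pgam1-201 and Pfkl-201 took all or all but 1 of the reads of their genes. The main transcript took 69.5% to 76.9% of Gapdh reads over the 8 libraries, 81.5% to 85.2% of Ldha reads, 77.5% to 82.5% of Aldoa reads, 80.6% to 88.6% of Eno1 reads, 85.5% to 92.0% of Tpi1 reads and 91.0% to 98.8% of Gpi1 reads. Over all 8 libraries these ranges overlapped between treatments, while within a time point the MHY libraries lay above the DMSO libraries for Tpi1 at 24 h and for Ldha at 48 h, and below them for Eno1 at 24 h, by differences that were not tested. Reads of Gapdh and Eno1 were hard to place, since 7.38% to 10.4% and 9.68% to 13.4% of them per library had a mapping quality of 10 or more, against 98.3% or more for Pgk1, Pgam1, Pfkl and Pkm. Eno1 shares nearly all of its sequence with the annotated copy Eno1b, which took 2737 reads. Counting Eno1b with Eno1 left the log2 ratio at 48 h at -0.48, an alternative chosen after seeing the data.

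Of the genes around glycolysis that were not among the 10, few passed the test. The list held 45 genes for glucose and lactate transport, hexokinases and other isozymes, fructose bisphosphate regulators, glycogen, the entry of pyruvate into mitochondria and the pentose phosphate pathway. Of these, 42 had reads and 22 were tested. At 24 h 0 of the 22 passed with limma (4 had an unadjusted p under 0.05, against 184 of all 4116 genes), and at 48 h 2 were lower and 0 higher in MHY (7 had an unadjusted p under 0.05, against 506 of all 4116 genes), against a called share of 1.31% lower and 0.413% higher over all genes. The median fitted log2 change of the 22 genes at 48 h was -0.36, against -0.02 over all genes tested. With total-read scaling the split of all genes called at 48 h was 32 higher and 28 lower in place of 17 higher and 54 lower.

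The 2 genes that fell were Slc16a3 and Aldoc. Slc16a3 encodes a monocarboxylate transporter that exports lactate. It had 734 (library 24) and 627 (library 25) RPM in DMSO at 48 h and 199 and 462 in MHY (log2 change -1.24, SE 0.17, limma adjusted p = 4.17e-10). Without the MHY library 24 the change was -0.54 with an adjusted p of 0.457, so that this call rested on that library. At 24 h Slc16a3 had 597 and 576 in DMSO and 433 and 480 in MHY and did not pass (adjusted p = 0.958). Aldoc, an aldolase isozyme best known from brain, had 17 and 28 reads in DMSO at 48 h and 3 and 3 reads in MHY (limma adjusted p = 0.0116). Its ratio of MHY to DMSO was 0.124, with an exact 95% counting interval of 0.0432 to 0.291. Its fitted log2 change was -2.87. Leaving out either MHY library ended the call of Aldoc, at changes of -2.47 without library 24 (limma adjusted p = 0.615) and -3.09 without library 25 (limma adjusted p = 0.0972).

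The glucose transporters and the pentose phosphate enzymes did not pass the test. Slc2a1 had 183 and 191 RPM in DMSO at 48 h and 121 and 195 in MHY, and Slc2a3 had 367 and 395 in DMSO and 277 and 320 in MHY. Both encode facilitative glucose transporters, and neither passed (limma adjusted p = 0.575 and 0.364). In the pentose phosphate pathway, which branches from glucose phosphate, all 6 genes tested had a fitted change below 0 at 48 h, with a median of -0.42, and in 5 of them the MHY libraries lay below the DMSO libraries (21.3% of all genes), but 0 passed (2 had an unadjusted p under 0.05). All 6 at 24 h had a fitted change above 0 (median 0.16), and again 0 passed. Tkt, a transketolase, had a fitted log2 change of -0.47 (SE 0.19, limma adjusted p = 0.211), Taldo1, a transaldolase, by -0.40 (SE 0.21, adjusted p = 0.412), and Pgd, the phosphogluconate dehydrogenase, by -0.43 (SE 0.24, adjusted p = 0.470). Pdhb, a subunit of the pyruvate dehydrogenase complex, had one of -0.53 (SE 0.24, limma adjusted p = 0.340). Without the MHY library 24 the change was 0.060 for Slc2a1, -0.25 for Slc2a3, -0.17 for Tkt, -0.51 for Taldo1, -0.68 for Pgd and -0.53 for Pdhb, and none passed.

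Among 418 genes outside all lists with at least 50 reads in every library, the levels most like the mean of the 10 were those of Rps4x, Rps16, Rpl27a, Rpl8 and Rack1. Their Pearson correlations of log2 level over the 8 libraries were 0.989, 0.983, 0.982, 0.977 and 0.971. The 8 libraries include those of 48 h that chose the 10 genes, so that a lower level in MHY at 48 h was selected for and is given without a test. The first 4 genes encode ribosomal proteins and Rack1 a scaffold protein of the small ribosomal subunit, and 80 of the 418 genes (19.1%) had symbols that begin with Rps or Rpl and a digit. Rps4x had 3210 and 3439 RPM in DMSO at 48 h and 2512 and 2752 in MHY (log2 ratio of group means -0.34). The ratios of the other 4 lay between -0.30 and -0.26, closer to 0 than that of any of the 10 glycolytic mRNAs.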

How the data were processed

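Poly(A) RNA of P19 cells was sequenced directly on nanopores (R9 chips) in 8 libraries, 2 biological replicates per group by the study's methods. The authors used Guppy for base calling, Deeplexicon for barcodes, minimap2 (version 2.20 in the submitters' processing notes) for alignment to GENCODE vM17 genes on mm10, and Nanopolish for tails. The deposited table holds 1 line per alignment. Its tail lengths are Nanopolish estimates in nt without normalization, as deposited by the authors. The deposited barcode confidence is a fraction from 0 to 1, and the mapping quality is the aligner's score for each alignment, as deposited.

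Alignments tagged PASS on nuclear mRNAs outside pseudogenes were kept, once per read and transcript (1926118 reads on 13120 genes), and counted per gene and library. The study used DESeq2 on a count matrix, which was not used here, so limma voom (limma 3.58.1, R 4.3.3) was fitted to counts scaled by median-of-ratios size factors, for 4116 genes (10 reads or more in 2 or more libraries). Median tails, and log2 odds of the shares of tails under 30 nt and of 30 to 90 nt (0.5 read added), were fitted with limma weighted by read number for 1949 genes with at least 10 reads in every library. All 8 libraries entered each fit, and p-values were adjusted by Benjamini-Hochberg over all genes of a contrast with a threshold of 0.05. Changes of the 10 genes at 48 h are log2 ratios of group means. The fits were checked on simulated data.

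The members and lists were chosen with earlier results of these data known. Named besides the 10 genes are pathway genes past the threshold, the 6 others with most reads, Pou5f1, Sox2, Lin28a and the neuron marker with most reads, and the 5 genes most alike over the libraries. Tdgf1, T and the markers at 0 reads were named after their values had been seen. The table marks the 48 h libraries by a suffix, and those without it were taken as 24 h. Which library is which numbered sample of its group cannot be read from the names and enters no result. All 4 libraries of a time point were in each of its runs (3 at 24 h and 2 at 48 h), and no run held both times, so that time and run cannot be told apart. Coordinates and exons come from GENCODE vM21 and promoters from RefSeq, both on GRCm38, and all 10 genes matched. The alternatives were other scalings, filters, read-level cuts, fits, a replicate block, single runs and leaving out each library.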

Additional observations from a re-analysis of the deposited data

How the results depend on the processing

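Of 989 values and counts recomputed under the alternatives, 35 turned in direction, 5 newly passed the threshold and 10 lost their call without turning, and the cause was not tested. T without the MHY library 24, counted among those that turned, lost its call as well. The 10 glycolytic mRNAs had lower levels in MHY at 48 h under every alternative run, a direction that follows from the way they were chosen. Their summed log2 ratio at 48 h was -0.66 and ranged from -0.91 (without the MHY library 25) to -0.45 (without the MHY library 24) when a library was left out. At 24 h it was -0.05, and -0.12 when a mapping quality of 10 or more was required, a filter that removes most Gapdh and Eno1 reads. Genes called in reads at 24 h numbered 2 in limma voom, 1 with upper-quartile scaling, 1 when mapping quality had to be 10 or more, 1 with at least 30 reads in every library, 4 with limma trend, and 0 to 3 with a library left out. Genes called in reads at 48 h numbered 71, and 37 with upper-quartile scaling (9 higher, 28 lower), 44 with a barcode confidence of at least 0.9, 34 with limma trend, 147 with no filter, 46 with at least 30 reads in every library, 17 without the MHY library 24 and 141 without the MHY library 25. Genes called in the 60-nt share at 24 h numbered 0, and 1 with a barcode confidence of at least 0.9, 4 with the libraries of 24 h alone and 0 to 4 with a library left out. For tails under 30 nt, 0 became 0 to 1. The call of Aldoc was also lost with the 4 libraries of 48 h alone (limma adjusted p = 0.155) at a change of -2.83. With a library left out, Tkt ranged from -0.69 (without the MHY library 25, limma adjusted p = 0.0466) to -0.17 (without the MHY library 24, limma adjusted p = 0.924), and Pgd from -0.68 (without the MHY library 24) to -0.19 (without the DMSO library 25). T also lost its call with alignments of every quality tag (limma adjusted p = 0.101), with limma trend (0.620) and with a replicate block (0.351). Pfkl at 48 h was -0.65 in one run, against -1.12 over both.

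No value passed the test after turning in direction, while T at 48 h, which had passed in the main fit, turned to 0.34 without the MHY library 24. For reads at 24 h, Gapdh turned to -0.12 and Eno1 to -0.21 at a mapping quality of 10 or more, and Aldoc to -0.054 with a barcode confidence of at least 0.9. For reads at 48 h, Slc2a3 turned to 0.17 at a mapping quality of 10 or more. For median tails at 24 h, Gpi1 turned to 0.37 nt and Pfkl to 0.69 nt with a barcode confidence of at least 0.9, Pfkl to 0.34 nt without weights, and Eno1 to 3.90 nt at a mapping quality of 10 or more. For the 60-nt share, Eno1 turned to -0.33 at a mapping quality of 10 or more and Pgam1 to -0.087 with a class of 40 to 80 nt. With a library left out, log2 changes in reads at 24 h ranged from -0.016 to 0.37 for Gpi1, -0.054 to 0.51 for Pfkl, -0.13 to 0.17 for Aldoa, -0.028 to 0.10 for Gapdh, -0.065 to 0.12 for Eno1, -0.37 to 0.057 for Pkm and -0.32 to 0.54 for Aldoc, and at 48 h from -0.63 to 0.060 for Slc2a1 and from -2.23 to 0.34 for T. Median tail changes at 24 h ranged from -9.99 nt to 9.92 nt for Gpi1, -8.71 nt to 7.96 nt for Pfkl and -6.42 nt to 1.95 nt for Aldoa. Log2 odds of the 60-nt share ranged from -0.12 to 0.33 for Gpi1, -0.34 to 0.60 for Pfkl, -0.10 to 0.15 for Aldoa and -0.049 to 0.28 for Eno1.

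Libraries of DMSO and MHY share numbers, but their deviations were hardly correlated (0.008 at 24 h and 0.089 at 48 h over 759 genes, 2 pairs), so that the number was not taken as a pairing. With a replicate block, 92 genes were called in reads at 48 h (20 higher, 72 lower), 2 in reads at 24 h and 4 in the 60-nt share at 24 h, including Gapdh (limma adjusted p = 0.00769). The summed log2 ratio under the block was -0.05 at 24 h and -0.68 at 48 h. With 2 libraries per group and 386 reads of Pfkl in all, small differences were not detectable.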
